A study of Homo sapiens with 4 samples.

Results

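The enzymes that turn lanosterol into cholesterol were examined at the mRNA level in renal carcinoma cells with and without VHL. The 8 genes, taken by symbol from the deposited count table, were CYP51A1, TM7SF2, MSMO1, NSDHL, HSD17B7, EBP, SC5D and DHCR7, and all 8 were among its 12912 genes. Each symbol stood for a single Ensembl identifier, and all 8 genes had enough counts to be tested.

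Lanosterol is the first sterol ring product of the cholesterol pathway, and a chain of membrane enzymes of the endoplasmic reticulum strips its extra methyl groups and shifts and reduces its double bonds. Several of these steps consume molecular oxygen. When sterols run low in that membrane, the transcription factor SREBP2 is released and, together with NF-Y and Sp1, switches on genes of cholesterol synthesis and uptake. Clear cell renal carcinoma (ccRCC) is known for cells filled with cholesteryl esters and other neutral lipids.

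786-O is a human ccRCC cell line without functional VHL, the substrate receptor of a ubiquitin ligase that marks the α subunits of hypoxia-inducible factors for degradation. 786-O-Ctrl remained VHL-null, and 786-O-VHL carried an HA-tagged VHL delivered by a retrovirus. Both sublines also carried a triple reporter of GFP, luciferase and thymidine kinase, and both were grown in RPMI1640 with fetal bovine serum and antibiotics. The values are gene counts from Illumina RNA-seq of total RNA, with 2 libraries per group. All libraries of a group came from 1 subline, and VHL in 786-O-VHL was expressed from a vector rather than from its own locus. The comparison asks how the mRNA of these enzymes differed between the sublines.

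The deeper 786-O-Ctrl library held 22141263 counts and the shallower one 15714166. For 786-O-VHL the totals were 2807779 in replicate 1 and 16114120 in replicate 2. A level of 3 counts, the upper limit allowed by a count of 0, was 1.02 CPM in 786-O-VHL replicate 1 and at most 0.199 CPM in the other libraries. CPM values are counts scaled to a common depth with TMM factors, and such limits cover counting error only. Nothing in the labels says that the libraries of a group came from separate cultures, so p-values measure the spread between these libraries, which may be technical.

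VHL itself (ENSG00000134086.7) was measured at 42.9 and 43.9 CPM in the 786-O-Ctrl libraries and at 178 and 163 CPM in 786-O-VHL replicates 1 and 2. Both 786-O-VHL libraries were above both 786-O-Ctrl libraries, with a log2 fold change of 1.96 (SE, the standard error, 0.0706, edgeR FDR = 2.86e-19). On the opposite strand a noncoding gene covers 23.5% of the VHL exon bases, and gene counts do not separate vector from endogenous transcripts. All 10 renal epithelial and renal carcinoma markers were detected, and they moved in different directions. PAX8 was at 277, 272, 166 and 137 CPM in the deeper and shallower 786-O-Ctrl libraries and 786-O-VHL replicates 1 and 2. In the same order CDH6 was at 219, 215, 366 and 251 CPM and EPCAM at 4.08, 3.39, 10.9 and 8.02 CPM, both higher in 786-O-VHL, while KRT18 and CDH2 changed little. The summed level of these markers was 3559, 3543, 2325 and 2209 CPM, and most of its fall came from VIM, the most abundant, at 1669, 1699, 751 and 709 CPM. None of the 6 leukocyte or 3 hepatocyte markers was among the genes of the table, 2 of 4 endothelial markers were (summed level at most 0.76 CPM, PECAM1 the most abundant) and 3 of 5 fibroblast markers were (10.5, 11.4, 15.3 and 14.6 CPM, COL1A1 the most abundant). The part of these shifts in the results that follow was not tested, and in bulk RNA fewer cells of a type and less RNA per cell cannot be told apart.

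Most enzymes of the lanosterol branch fell in 786-O-VHL. With edgeR's quasi-likelihood test and an FDR under 0.05 over the 12335 genes tested, 6 of the 8 were lower, namely MSMO1, NSDHL, HSD17B7, EBP, SC5D and DHCR7, against 31.9% of all genes tested. None of the 8 was higher by edgeR FDR, by an unadjusted edgeR p under 0.05 or by DESeq2 (0 in each case), against 32.6% of all genes by edgeR FDR. The median log2 fold change of the 8 was -1.71, and that of all genes tested was 0.02. In 7 of the 8 both 786-O-VHL libraries lay below both 786-O-Ctrl libraries, as in 39.2% of all genes. DHCR7 alone passed the study's threshold of over 4-fold with an FDR under 0.01, which 1.54% of all genes passed on the lower side, and the number was 2 with DESeq2 or without the deeper 786-O-Ctrl library and 3 in libraries thinned to the depth of the shallowest or without 786-O-VHL replicate 2. Across all genes 3939 were lower and 4017 higher, and with scaling by library totals alone the split was 3097 lower and 5077 higher, with a median log2 fold change of 0.15.

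**Figure D1:**
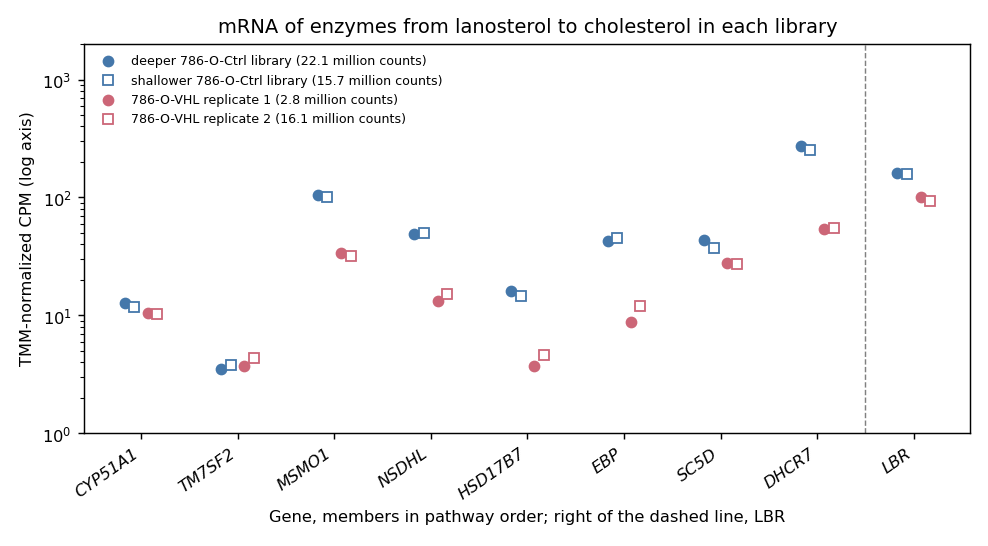
TMM-normalized CPM (log axis) of each enzyme mRNA in each of the 4 libraries, with the 8 genes in pathway order and LBR to the right of the dashed line. Blue symbols are 786-O-Ctrl and red symbols 786-O-VHL, and for DHCR7 the red symbols at 53.9 and 55.4 CPM lie below the blue ones at 275 and 251 CPM.

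Promoters were examined because 6 of the 8 mRNAs moved together. RefSeq (GRCh38.p14) windows from 250 bases before to 50 bases after an annotated start were found for all 8 genes, with 2 windows each for SC5D and DHCR7. They were searched on both strands for the CCAAT box of NF-Y. The sequences printed are those of the 5 genes that fell by over 2-fold and of the 2 that were not called, with 150 bases before the start, or 250 where a CCAAT match lies farther upstream. All run 5′ to 3′ on the strand of the gene and end at the base before the start, and capitals mark CCAAT or its reverse complement ATTGG.
CYP51A1, chr7:92134478-92134627, minus strand: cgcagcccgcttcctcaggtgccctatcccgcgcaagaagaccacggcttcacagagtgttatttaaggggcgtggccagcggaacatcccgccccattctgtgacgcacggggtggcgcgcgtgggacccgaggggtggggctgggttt
TM7SF2, chr11:65111722-65111871, plus strand: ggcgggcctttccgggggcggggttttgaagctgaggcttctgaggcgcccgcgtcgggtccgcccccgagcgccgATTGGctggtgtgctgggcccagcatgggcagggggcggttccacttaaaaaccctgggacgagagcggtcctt
MSMO1, chr4:165327419-165327668, plus strand: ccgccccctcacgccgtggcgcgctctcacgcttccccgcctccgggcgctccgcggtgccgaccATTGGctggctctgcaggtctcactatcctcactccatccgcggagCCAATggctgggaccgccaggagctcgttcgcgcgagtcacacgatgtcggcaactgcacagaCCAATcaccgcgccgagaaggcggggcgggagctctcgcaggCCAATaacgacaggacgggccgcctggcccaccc
NSDHL, chrX:152830813-152831062, plus strand: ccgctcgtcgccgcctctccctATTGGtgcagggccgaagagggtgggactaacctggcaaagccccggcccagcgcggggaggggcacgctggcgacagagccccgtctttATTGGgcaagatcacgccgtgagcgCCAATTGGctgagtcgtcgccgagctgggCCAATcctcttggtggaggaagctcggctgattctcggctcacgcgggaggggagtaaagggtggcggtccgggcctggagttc
HSD17B7, chr1:162790552-162790701, plus strand: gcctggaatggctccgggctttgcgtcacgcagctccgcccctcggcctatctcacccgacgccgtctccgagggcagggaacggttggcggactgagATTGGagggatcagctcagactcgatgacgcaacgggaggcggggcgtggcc
EBP, chrX:48521558-48521807, plus strand: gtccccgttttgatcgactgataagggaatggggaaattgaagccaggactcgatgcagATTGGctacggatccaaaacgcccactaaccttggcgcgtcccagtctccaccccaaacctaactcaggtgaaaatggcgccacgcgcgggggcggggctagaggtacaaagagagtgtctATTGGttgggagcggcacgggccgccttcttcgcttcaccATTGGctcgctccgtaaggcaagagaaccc
DHCR7, chr11:71448394-71448543, minus strand: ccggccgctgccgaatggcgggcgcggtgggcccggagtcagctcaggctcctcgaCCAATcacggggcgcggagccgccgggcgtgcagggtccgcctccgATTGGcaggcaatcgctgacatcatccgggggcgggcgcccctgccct

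CCAAT was present in a window of 7 of the 8 genes, and CYP51A1 had no match. Of all 35116 RefSeq windows 34.6% held it, and of the 14415 windows of genes tested 34.4% did. Counted from the start, NSDHL had 5 matches, of which those at -113 and -110 overlap on opposite strands, MSMO1 had 4 and EBP had 3. DHCR7 had 2, both in the window shown, and HSD17B7 had 2, at -52 and, past the start, at 8. These 5 genes with at least 2 matches were also the 5 that fell by over 2-fold, whereas 11.8% of the windows of genes tested held at least 2. Counting only bases before the start, HSD17B7 keeps 1 match, so that 4 genes held at least 2, beside 11.1% of windows, and the sets no longer coincide. TM7SF2 had 1 match at -74, and SC5D had 1 in each of its overlapping windows.

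The same windows were also searched for other motifs. The sterol regulatory element TCACNCCAC was found in no window of the 8 genes and in 1.13% of all windows (1.12% of those of genes tested), and its shorter part CACNCCAC in SC5D alone and in 5.87% of all windows (5.72%). The GC box GGGCGG was found in all but NSDHL, and 45% of all windows and 65.6% of windows of genes tested held it. For the hypoxia response element cores, ACGTG was found in SC5D and in the second DHCR7 window (21.4% of all windows, 24.9% of those of genes tested) and GCGTG in 7 genes, all but TM7SF2 (36.5% and 48.1%). At least 2 matches of GCGTG were found in 6 of the 8 genes and in 18.1% of windows of genes tested. These 6 include CYP51A1, which was not called, and SC5D, which fell by less than 2-fold, but not EBP, so a high count of matches in these windows is not particular to CCAAT and need not follow the falls. Counting only bases before the start, DHCR7 keeps 1 match of GCGTG in each window. Then 5 genes held at least 2, beside 14.8% of windows of genes tested. The E-box CACGTG, which contains ACGTG on both strands, was found in SC5D (7.26% and 9.11%). CACNCCAC lies within TCACNCCAC, and a match describes letters only and is not evidence of a site.

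**Figure D2:**
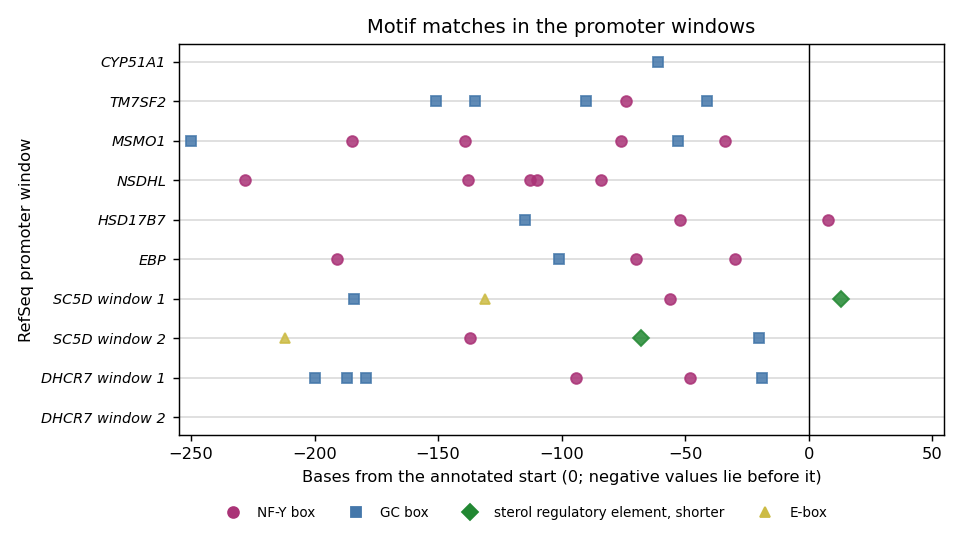
Positions of motif matches on either strand in the RefSeq promoter windows of the 8 genes, in bases from the annotated start. Circles are CCAAT (NF-Y box), squares GGGCGG (GC box), diamonds CACNCCAC and triangles CACGTG (E-box), and NSDHL has 5 circles while CYP51A1 has none.

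CYP51A1, the cytochrome P450 that opens this branch by removing a ring methyl group from lanosterol, was not called. Its mRNA was 12.9 and 11.9 CPM in the deeper and shallower 786-O-Ctrl libraries and 10.5 and 10.3 CPM in 786-O-VHL replicates 1 and 2. Both 786-O-VHL libraries were lower, without overlap, but the difference was small. The log2 fold change was -0.27 (SE 0.161, 95% interval -0.60 to 0.06, edgeR FDR = 0.15), and it rests on 31 counts in 786-O-VHL replicate 1. CYP51A1 (ENSG00000001630.17) lies at chr7:91714301-91764117 of GRCh37 (hg19) on the minus strand. There 68.2% of its exon bases also belong to other protein-coding gene models of the same strand, ENSG00000285772 and ENSG00000289027, that have no counts here, and 5.9% to genes of the opposite strand. How the counting treated shared bases and strand is not given in the sources used here, so the level of CYP51A1 is uncertain.

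TM7SF2 and LBR encode sterol reductases that both can reduce the double bond left by CYP51A1, and LBR is also a receptor of the nuclear lamina. TM7SF2 mRNA was 3.51 and 3.79 CPM in the deeper and shallower 786-O-Ctrl libraries and 3.73 and 4.34 CPM in 786-O-VHL replicates 1 and 2. The groups overlapped, and the shallowest library held 11 counts. The log2 fold change was 0.21 (SE 0.263, 95% interval -0.33 to 0.75, edgeR FDR = 0.497), an interval that includes a moderate change in either direction. LBR was measured at 161 and 159 CPM in the 786-O-Ctrl libraries and at 101 and 93.2 CPM in those of 786-O-VHL. Both 786-O-VHL libraries were lower, and LBR fell with a log2 fold change of -0.75 (SE 0.0677, edgeR FDR = 1.34e-10). TM7SF2 (ENSG00000149809.14, chr11:64879317-64883856 of GRCh37, plus strand) shares 0.5% of its exon bases with the adjacent VPS51.

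The next enzymes act as a complex that removes the remaining pair of methyl groups from the ring. MSMO1, the monooxygenase that oxidizes these groups, was measured at 104 and 100.2 CPM in the deeper and shallower 786-O-Ctrl libraries and at 33.6 and 31.8 CPM in 786-O-VHL replicates 1 and 2. The libraries of each group lay close together and far from those of the other. The means of 102 ± 3.01 and 32.7 ± 1.28 CPM (SD, n = 2) gave a log2 fold change of -1.67 (SE 0.0803, edgeR FDR = 1.47e-16). MSMO1 (ENSG00000052802.13, chr4:166248819-166264316 of GRCh37, plus strand) shares no exon base with another annotated gene, and its promoter carries 4 CCAAT matches in the sequence above.

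NSDHL, the dehydrogenase that removes the oxidized carbon as carbon dioxide, was measured at 49.3 and 50.04 CPM in the deeper and shallower 786-O-Ctrl libraries and at 13.2 and 15.1 CPM in 786-O-VHL replicates 1 and 2. Both 786-O-VHL libraries were far below both 786-O-Ctrl libraries. The log2 fold change was -1.75 (SE 0.109, edgeR FDR = 5.29e-14), close to that of MSMO1. NSDHL (ENSG00000147383.11, chrX:151999511-152038273 of GRCh37, plus strand) shares no exon base with another gene.

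HSD17B7, the reductase that returns the resulting ketone to an alcohol, was measured at 16.1 and 14.6 CPM in the deeper and shallower 786-O-Ctrl libraries and at 3.73 and 4.63 CPM in 786-O-VHL replicates 1 and 2. The groups were far apart, although the level in 786-O-VHL replicate 1 rests on 11 counts. The log2 fold change was -1.78 (SE 0.188, edgeR FDR = 3.0e-09), the widest error among the 6 enzymes that fell. HSD17B7 (ENSG00000132196.14, chr1:162760492-162782613 of GRCh37, plus strand) has annotated pseudogene copies, for which 0 genes of the table had counts here. How reads shared with the copies were counted is not given in the sources used here, so its level is uncertain.

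ERG28, which holds the demethylating enzymes together, was measured at 37.3 and 39.8 CPM in 786-O-Ctrl and at 17.3 and 22.0 CPM in 786-O-VHL. It fell as well, without overlap, by less than its partners, with a log2 fold change of -0.87 (SE 0.111, edgeR FDR = 9.22e-08). FAXDC2, of the same hydroxylase superfamily as MSMO1, had 11, 7, 2 and 5 counts in the deeper and shallower 786-O-Ctrl libraries and 786-O-VHL replicates 1 and 2 and was too low to be tested. The difference between ERG28 and its partners was itself not tested.

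EBP, the isomerase that moves a ring double bond after demethylation, was measured at 43.1 and 45.8 CPM in the deeper and shallower 786-O-Ctrl libraries and at 8.82 and 12 CPM in 786-O-VHL replicates 1 and 2. The groups did not overlap, and the 786-O-VHL libraries differed from each other more than those of 786-O-Ctrl relative to their level. The log2 fold change was -1.96 (SE 0.123, edgeR FDR = 5.65e-14), and without 786-O-VHL replicate 2, whose level was the higher one, it was -2.33. EBP (ENSG00000147155.11, chrX:48380187-48387104 of GRCh37, plus strand) shares 36.4% of its exon bases with ENSG00000286268, a protein-coding model on the same strand without counts here, so its level is uncertain.

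SC5D, the oxygen-dependent desaturase that adds a ring double bond, was measured at 43.3 and 37.2 CPM in the deeper and shallower 786-O-Ctrl libraries and at 27.8 and 27.5 CPM in 786-O-VHL replicates 1 and 2. Both 786-O-VHL libraries were lower, and most of the spread within a group was between the 786-O-Ctrl libraries. SC5D fell less than the other called enzymes, to 68.2% of the level in 786-O-Ctrl, with a log2 fold change of -0.55 (SE 0.105, edgeR FDR = 4.22e-05). SC5D (ENSG00000109929.10, chr11:121163390-121184119 of GRCh37, plus strand) shares no exon base with another gene.

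DHCR7, the reductase that completes cholesterol in the Kandutsch-Russell branch and is mutated in Smith-Lemli-Opitz syndrome, fell most of the 8 in all settings except without 786-O-VHL replicate 2, where EBP fell slightly more. It was measured at 275 and 251 CPM in the deeper and shallower 786-O-Ctrl libraries and at 53.9 and 55.4 CPM in 786-O-VHL replicates 1 and 2. The libraries of 786-O-VHL were nearly equal and well below those of 786-O-Ctrl. The means of 263 ± 16.7 and 54.7 ± 1.04 CPM (SD, n = 2) gave a log2 fold change of -2.26 (SE 0.0753, edgeR FDR = 5.94e-20), which is 4.78-fold lower. DHCR7 (ENSG00000172893.15, chr11:71139239-71163914 of GRCh37, minus strand) shares no exon base with another gene, and a long noncoding RNA is annotated in its intron on the opposite strand.

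Ratios between enzymes within a library can be compared across libraries, since gene length is the same in each, and need no scaling. SC5D counts per 100 DHCR7 counts, for consecutive steps of the pathway, were 15.8 and 14.8 in the 786-O-Ctrl libraries, against 51.6 and 49.6 in those of 786-O-VHL. CYP51A1 counts per 100 MSMO1 counts were 12.3 and 11.9 against 31.3 and 32.3. Both ratios were higher in 786-O-VHL without overlap. The counts of CYP51A1 are uncertain because of its shared exon bases, and so is its ratio to MSMO1. NSDHL counts per 100 MSMO1 counts, in contrast, were 47.2 and 49.9 against 39.4 and 47.7, and the groups overlapped. With 2 libraries against 2 the smallest two-sided exact permutation p is 0.333, so these ratios are given as a description. The summed level of the 8 mRNAs was 547 and 514 CPM in the 786-O-Ctrl libraries and 155 and 161 CPM in the 786-O-VHL libraries.

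Levels between genes can be compared only per length, here as CPM per kilobase of all annotated exon bases. On that scale DHCR7 (38.2 ± 2.43, SD, n = 2) and MSMO1 (35.9 ± 1.05) led in 786-O-Ctrl with overlapping libraries, followed by EBP (25.1 ± 1.09) and NSDHL (24.9 ± 0.248), which also overlapped. SC5D was far lower on the CPM per kilobase scale at 4.0 ± 0.425, followed by HSD17B7 (3.20 ± 0.221) and CYP51A1 (2.97 ± 0.165), which overlapped, and TM7SF2 (1.07 ± 0.0573). In 786-O-VHL the order of levels in CPM per kilobase was MSMO1 (11.5 ± 0.453), DHCR7 (7.95 ± 0.151), NSDHL (7.11 ± 0.678) and EBP (5.89 ± 1.27), of which only NSDHL and EBP overlapped. There SC5D (2.75 ± 0.0226), CYP51A1 (2.49 ± 0.041), TM7SF2 (1.18 ± 0.125) and HSD17B7 (0.874 ± 0.133) followed in CPM per kilobase without overlap between neighbors. HSD17B7 thus had the lowest level per kilobase in 786-O-VHL and TM7SF2 the lowest in 786-O-Ctrl. The places of CYP51A1 and EBP in these orders are uncertain. Other gene models of the same strand share 68.2% and 36.4% of their exon bases, and how reads there were counted is not known. The place of HSD17B7 is uncertain because of its pseudogene copies. The order at the top depended on the length used, since per kilobase of the longest transcript DHCR7 led in both groups, at 92.2 ± 5.86 in the 786-O-Ctrl libraries and 19.2 ± 0.361 in those of 786-O-VHL. LBR was at 28 ± 0.198 CPM per kilobase of exon in the 786-O-Ctrl libraries and 17 ± 0.933 in those of 786-O-VHL, far above TM7SF2 in both groups.

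The oxygenases of this branch draw electrons from partner proteins, and other proteins bind sterols or these enzymes. Of 9 such genes, 5 fell and 1 rose, where 31.9% of all genes tested were lower and 32.6% higher, with a median log2 fold change of -0.28 beside 0.02 for all genes tested. POR, the reductase that feeds cytochrome P450 enzymes such as CYP51A1, fell with a log2 fold change of -0.35 (SE 0.0679, edgeR FDR = 5.32e-05). CYB5R3, the reductase of cytochrome b5, fell with -0.50 (SE 0.0645, edgeR FDR = 1.01e-07). The cytochromes b5 themselves were not called, with log2 fold changes of -0.18 for CYB5A (edgeR FDR = 0.57) and -0.08 for CYB5B (edgeR FDR = 0.338), and neither was the reductase CYB5R1 (0.13, edgeR FDR = 0.286, between 0.0315 with library totals alone and 0.791 over the alternatives). CYB5B shares 24.1% and CYB5R3 10.6% of exon bases with other gene models of the same strand, so their levels are uncertain.

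Among the binding proteins, PGRMC1, a heme protein that binds cytochrome P450 enzymes, had a fold change of -0.34 on the log2 scale (SE 0.0658, edgeR FDR = 6.31e-05) and its paralog PGRMC2 one of 0.24 (SE 0.0666, edgeR FDR = 0.00295). The FDR of PGRMC2 lay between 1.8e-05 and 0.123 over all alternatives, and its call was lost without the deeper 786-O-Ctrl library (0.20, edgeR FDR = 0.123) and with DESeq2. EBPL, a paralog of EBP without known isomerase activity, was at -0.28 (SE 0.109, edgeR FDR = 0.0273), and its FDR reached 0.248 over the alternatives. None of the 9 moved by as much as 2-fold, whereas 5 of the 8 enzymes fell by more, as did 927 of the 12335 genes tested.

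**Figure D3:**
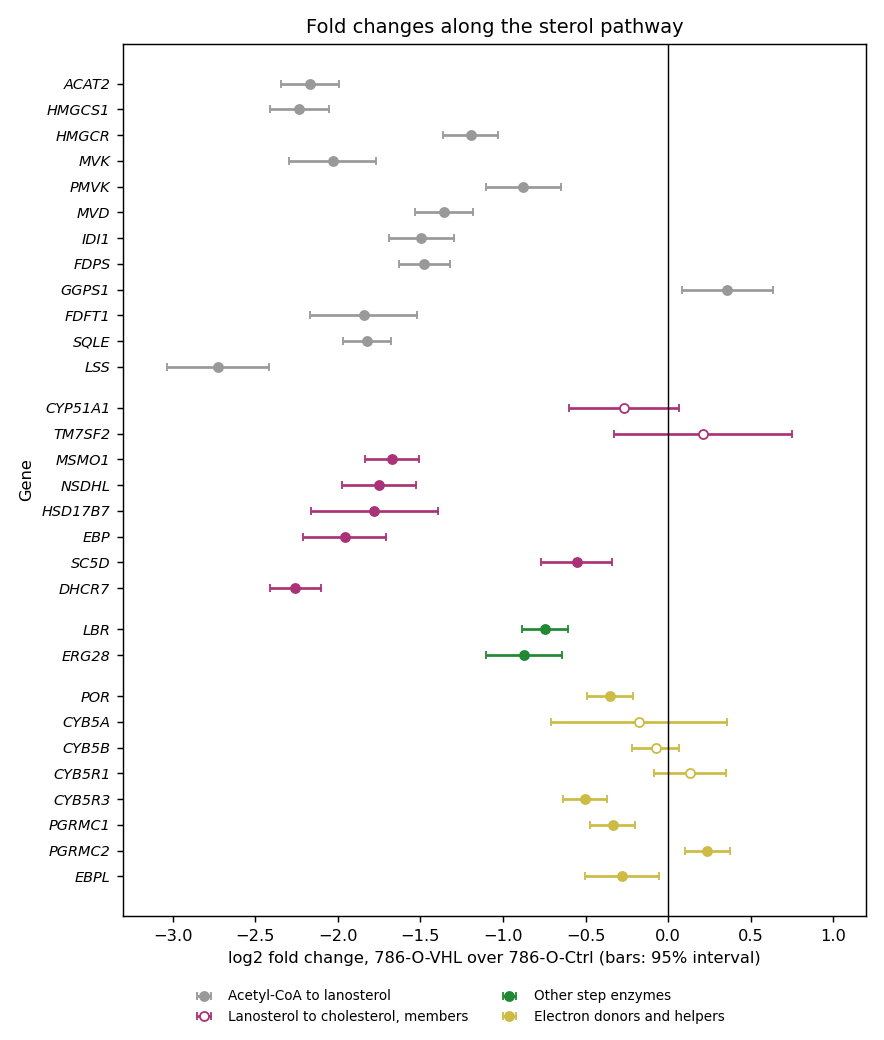
Log2 fold change of 786-O-VHL over 786-O-Ctrl for genes of the sterol pathway, with 95% intervals as bars, filled symbols for an edgeR FDR under 0.05 and open symbols for the rest. Genes from acetyl-CoA to lanosterol and then the 8 enzymes are in pathway order. Other step enzymes and the electron donors and helpers follow as separate blocks. Among the 8 enzymes in purple, the intervals of CYP51A1 and TM7SF2 include 0 and those of the other 6 lie below it.

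Upstream of lanosterol, 12 of 13 listed genes from acetyl-CoA to lanosterol were tested, 11 fell and 1 rose (all genes tested: 31.9% lower, 32.6% higher), with a median log2 fold change of -1.66. LSS, which closes the ring to give lanosterol, fell with a log2 fold change of -2.72 (SE 0.15, edgeR FDR = 3.26e-15) and HMGCS1, which makes HMG-CoA, with -2.23 (SE 0.0872, edgeR FDR = 1.62e-18), and a noncoding gene of the opposite strand covers 37.7% of the HMGCS1 exon bases. GGPS1, which uses the pathway for geranylgeranyl diphosphate rather than sterols, was higher at 0.36 (SE 0.134, edgeR FDR = 0.0217). Its FDR lay between 0.00227 and 0.266 over the alternatives, the highest value being that without the deeper 786-O-Ctrl library, and 37.3% of its exon bases are shared with another gene of the same strand. CYP51A1 and TM7SF2 thus stood between LSS and MSMO1, the neighbors in the pathway that both fell by over 2-fold, without passing the test. However, LBR, which can carry out the same reduction as TM7SF2, did fall, with a log2 fold change of -0.75. The counts of CYP51A1 are uncertain, since 68.2% of its exon bases are shared with other gene models of the same strand.

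Of 21 genes of SREBP control and sterol uptake, 20 were tested, 11 fell and 3 rose, beside 31.9% lower and 32.6% higher among all genes tested, with a median log2 fold change of -0.39. INSIG1, which retains the SREBP complex in the endoplasmic reticulum and is itself a target of SREBP, fell with a log2 fold change of -3.84 (SE 0.0913, edgeR FDR = 7.02e-23). MBTPS2, a protease that releases SREBP, had 0.37 (SE 0.0856, edgeR FDR = 0.000404), a call lost without 786-O-VHL replicate 2 (0.21, edgeR FDR = 0.199, the highest over the alternatives), and it shares 13.4% of its exon bases with other genes of the same strand. NPC1, which exports cholesterol from lysosomes, rose with 0.33 (SE 0.0627, edgeR FDR = 4.99e-05).

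The genes whose pattern over the 4 libraries was most like that of DHCR7, the enzyme with the smallest p, were FADS2, MCM5 and C1QL1. The measure was the Euclidean distance between log2 CPM values centered on their mean, at 0.0717, 0.0977 and 0.102. Their log2 fold changes were -2.20, -2.17 and -2.30, beside -2.26 for DHCR7, a closeness that follows from the measure. FADS2 is a fatty acid desaturase and MCM5 a subunit of the replicative helicase.

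**Figure D4:**
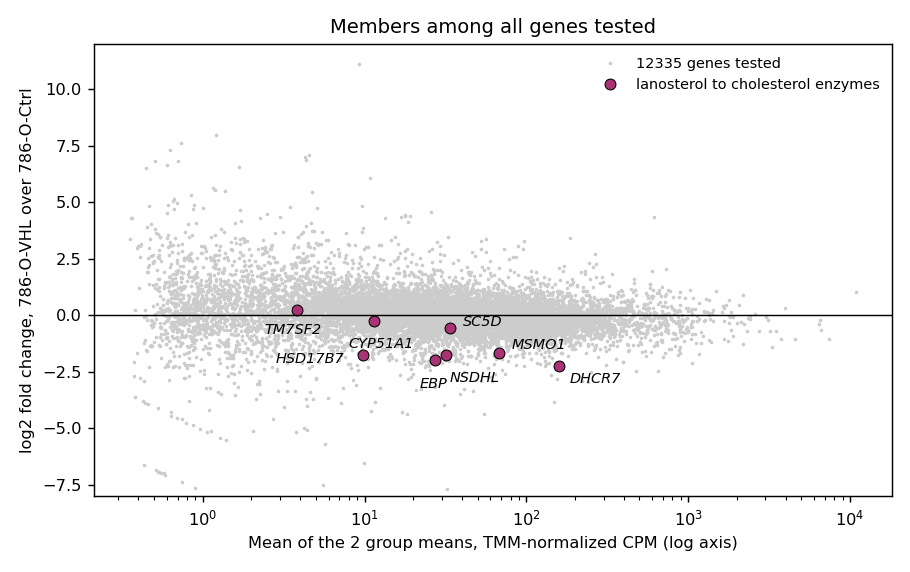
Log2 fold change of 786-O-VHL over 786-O-Ctrl against the mean of both group means in TMM-normalized CPM (log axis) for the 12335 genes tested (grey), with the 8 enzymes in purple. DHCR7 lies at -2.26 and TM7SF2, the only one of the 8 above 0, at 0.21.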

How the data were processed

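The authors extracted total RNA and sequenced Illumina libraries, and per the labels CASAVA, STAR and the genome build hg19 were used. The values are raw counts per gene in 1 table that the authors deposited, and the sources used here do not name the counting tool, its annotation or its use of strand. Samples were grouped by genotype. Both 786-O-Ctrl columns carry the same number, so these libraries are named by depth. The deepest library had 7.89 times the counts of the shallowest. Within groups, counts differed by more than sampling noise (chi-square per degree of freedom 2.25 over 12522 genes in 786-O-Ctrl and 2.76 over 12404 in 786-O-VHL). The libraries were therefore not pooled, and each was treated as 1 replicate in the fit. Such spread may be technical and does not show that the libraries came from separate cultures.

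In R 4.3.3, edgeR 4.0.16 kept genes by filterByExpr (minimum count 10), which removed 577 of 12912. TMM scaling, 1 group term, the quasi-likelihood F test and Benjamini-Hochberg adjustment (FDR) over the 12335 genes left followed. Standard errors are those implied by the F statistic. The biological coefficient of variation was 4.31%, and the spread was shared between genes with 25.5 prior degrees of freedom. Alternatives were DESeq2 1.42.0, RLE size factors, library totals alone, no filter, at least 10 counts everywhere, thinned libraries, leave-one-out fits for every library, an FDR under 0.01, lengths of the longest transcript and motif windows before the start. The script was tested on simulated counts.

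The text names all 8 enzymes, their step partners and helpers, up to 2 genes per direction of each other list with the largest fold change past an FDR of 0.05, and the 3 genes outside the lists nearest DHCR7. Some of these genes are counted in their lists but not reported here. The members and lists were chosen with earlier results of these data known. Coordinates, lengths and overlaps are from GENCODE v44lift37 (GRCh37), which held 12749 of the 12912 identifiers. Its gene models can differ from those used for counting. Promoters are from RefSeq (GRCh38.p14).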

Additional observations from a re-analysis of the deposited data

How the results depend on the processing

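The log2 fold changes of the 8 enzymes kept their direction and their side of the FDR threshold of 0.05 in all 80 combinations of gene and alternative run, and each setting gave 6 lower and 0 higher. SC5D, the weakest call, ranged from -0.65 to -0.42 with an FDR of at most 0.0179, and DHCR7 from -2.33 to -2.12. CYP51A1 ranged from -0.44 to -0.13 (lowest FDR 0.129) and TM7SF2 from 0.03 to 0.34 (lowest FDR 0.258). The number lower by over 4-fold with an FDR under 0.01, 1 with edgeR as described, was 2 with DESeq2, 3 with libraries thinned to the shallowest and 1 to 3 with each library left out in turn. Among list counts, helpers that were higher numbered 0 with DESeq2, 2 with library totals alone and 0 to 1 with a library left out, beside 1. Genes higher from acetyl-CoA to lanosterol numbered 0 with DESeq2, 0 in thinned libraries and 0 to 1 with a library left out, beside 1. Genes of SREBP control that were higher numbered 6 with library totals alone and 1 to 3 with a library left out, beside 3. LXR and efflux genes that were higher numbered 0 with DESeq2, 1 without a filter, 0 with at least 10 counts everywhere, 0 in thinned libraries and 0 to 1 with a library left out, beside 2. Branch and oxysterol genes that were lower numbered 1 with DESeq2, library totals alone, thinned libraries and each library left out, beside 2, and those higher numbered 1 with DESeq2 and in thinned libraries and 1 to 2 with a library left out, beside 2. Of the other named genes, 235 of 273 combinations kept direction and side. The sign changed for 3 genes that were not called. CYB5A lay between -0.40 and 0.46 with a library left out (0.0145 without the shallower 786-O-Ctrl library). CYB5B was at 0.0572 with library totals alone and between -0.117 and 0.0064 with a library left out, and CYB5R1 between -0.0639 and 0.187. The ratio of the highest to the lowest level per length among the 8 in 786-O-Ctrl was 35.7 over all exon bases and 52.9 over the longest transcript. The cause of these changes was not tested. With a library left out, 1 group has a lone library that is assumed to vary like the other group.

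No paired analysis was possible because both 786-O-Ctrl columns carry the same replicate number, and the fit with a replicate term was not run. Depth limits genes with few counts in 786-O-VHL replicate 1, where 1 count is 0.339 CPM, and TM7SF2 and HSD17B7 had 11 counts each there. Each group is 1 subline, so VHL restoration and other differences between the sublines cannot be told apart.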

Other observations

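The list of LXR and efflux holds genes that respond to surplus sterol, carry or take it across membranes, or make or cleave its esters. Of 11 listed, 10 were tested, 4 were lower and 2 higher, where 31.9% of all genes tested were lower and 32.6% higher, with a median log2 fold change of -0.15 beside 0.02 for all genes, and 3 fell by over 2-fold, beside 927 of the 12335 genes tested. SCARB1, the HDL receptor, was measured at 208 and 204 CPM in the deeper and shallower 786-O-Ctrl libraries and at 71.6 and 68.1 CPM in 786-O-VHL replicates 1 and 2, and fell with a log2 fold change of -1.58 (SE 0.07, edgeR FDR = 2.63e-17). Other genes named by rule rest on few counts, and the number higher was 0 or 1 under several alternatives. With at least 10 counts everywhere and in thinned libraries these genes had no result, and neither had ABCG4 without 786-O-VHL replicate 2. The highest FDR given for each leaves such settings out. SOAT2, an enzyme that esterifies cholesterol, had 33 and 19 counts in the 786-O-Ctrl libraries against 1 and 5 in those of 786-O-VHL (edgeR FDR = 0.00205, up to 0.188 over the alternatives), the exporter ABCG4 5 and 3 against 3 and 22 (edgeR FDR = 0.00093, up to 0.0537), and APOE 14 and 13 against 5 and 26 (edgeR FDR = 0.0452, up to 0.303).

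Of 14 genes that modify sterols into oxysterols, bile acids, steroids or active vitamin D, or that bind them, 8 were tested, 2 were lower and 2 higher (all genes tested: 31.9% lower, 32.6% higher), with a median log2 fold change of 0.25. HSD3B7, an enzyme of bile acid synthesis, fell with -0.96 (SE 0.184, edgeR FDR = 4.76e-05), and 64.8% of its exon bases are shared with a gene model of the opposite strand. OSBPL2, an oxysterol-binding protein, rose with 0.45 (SE 0.0796, edgeR FDR = 1.69e-05). STARD3 (-0.18, edgeR FDR = 0.0419) and OSBP (0.22, edgeR FDR = 0.00644), which move cholesterol between membranes, lost their calls under several alternatives, where the highest FDR was 0.596 and 0.237.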
